A study of Mus musculus with 6 samples.

Results

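NKT-like cells were T cells with UMIs (unique molecular identifiers, 1 per captured transcript molecule) of at least 2 of the 3 genes Zbtb16, Klrb1c and Il4. The cells were chosen by these values: at least 300 genes, at most 10% mitochondrial UMIs, at least 1 UMI of the T cell receptor component Cd3e and none of the regulatory T cell factor Foxp3. In all, 262 cells met the rule, out of 34730 Foxp3-negative T cells (0.754%) and 41303 cells kept in the series. Spleen gave 245 of them and the aorta 17, and they were compared with the other 34468 Foxp3-negative T cells of the same libraries. Since the 3 genes chose the cells, their levels are a description and were not tested.

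The study compared sorted CD4+ T cells of C57/B6 mice with an abdominal aortic aneurysm, induced by exposing the aorta to the protease porcine pancreatic elastase (labelled PPE). All 6 libraries come from PPE-treated mice aged 8 to 12 weeks, 14 days after surgery: 3 of spleen and 3 of the vascular wall. The spleen was ground without enzyme, while whole aortas were minced and digested for 1 h at 37 °C, so tissue and dissociation cannot be told apart. The labels number the libraries 1 to 3 in each tissue and do not say whether each is 1 animal or a pool, so p-values reflect how these libraries varied, and part of that variation may be technical. Untreated mice were not analysed here.

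Natural killer T (NKT) cells are innate-like T cells that recognise lipids presented by CD1d through a semi-invariant receptor. The transcription factor PLZF, encoded by Zbtb16, installs their programme during thymic development, and they can release interleukin-4 and interferon-gamma within hours of stimulation. NKT1 cells are known for T-bet, the interleukin-2 and interleukin-15 receptor chain Il2rb and, in this strain, the surface marker NK1.1 encoded by Klrb1c. NKT2 cells are known for Gata3 and interleukin-4, and NKT17 cells for interleukin-17. T cell receptor sequences and CD1d binding were not analysed here, so the label rests on transcripts alone.

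Per library, the spleen held 48, 103 and 94 NKT-like cells and the aorta 7, 3 and 7, from library totals of 14836442 to 55483411 UMIs. In spleen the median depth was 4866 to 5484 UMIs in NKT-like cells and 5069 to 5770 in the other T cells. Ribosomal protein transcripts made up 28.9% to 30.9% of their UMIs against 39.0% to 40.8%. A neighbour-based doublet score marked 31 of the 262 (11.8%) and 5.71% of the other T cells. RNA of B cells, macrophages or plasmacytoid dendritic cells was found in 18 of them (6.87%) and in 8.34% of the others. Pairs of libraries shared 18 to 136 barcodes. No barcode was an NKT-like cell in 2 libraries, and 14 of their barcodes also occurred in another library. Of the 8 markers of natural killer (NK) and innate lymphoid cells, 2 of the 262 cells carried at least 3, although both had Cd3e. The cell of spleen library 2 had 3 UMIs of Cd3e, 5 of Klrb1c, 2 of the NK receptor Ncr1 and 47 of granzyme A. The cell of vascular library 1 had 5 of Cd3e, 3 of Klrb1c, 6 of Ncr1 and 94 of granzyme A. Where leaving out such cells changed the call of a gene or list described below, both values are given.

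The promoters of 4 genes are shown because the results turn on these genes: Klrb1c, which helped choose the cells, Klrk1 and Klrc1, its neighbours in the NK gene complex on chromosome 6, and Xcl1, the gene most raised in NKT-like cells. Each run covers 250 bases before to 50 bases after the start of transcription, from RefSeq on GRCm38.p6 (mm10), all on the minus strand. Capitals mark TCACAC or its reverse complement GTGTGA, the half-site bound by T-box factors such as T-bet and Eomes.
Klrb1c, chr6:128788592-128788891: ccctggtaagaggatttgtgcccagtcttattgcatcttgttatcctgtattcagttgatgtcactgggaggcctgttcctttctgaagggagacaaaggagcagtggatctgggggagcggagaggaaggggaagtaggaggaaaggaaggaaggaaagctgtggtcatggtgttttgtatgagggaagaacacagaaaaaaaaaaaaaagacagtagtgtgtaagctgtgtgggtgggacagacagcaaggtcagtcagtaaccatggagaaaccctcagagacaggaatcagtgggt
Klrk1, chr6:129623815-129624114: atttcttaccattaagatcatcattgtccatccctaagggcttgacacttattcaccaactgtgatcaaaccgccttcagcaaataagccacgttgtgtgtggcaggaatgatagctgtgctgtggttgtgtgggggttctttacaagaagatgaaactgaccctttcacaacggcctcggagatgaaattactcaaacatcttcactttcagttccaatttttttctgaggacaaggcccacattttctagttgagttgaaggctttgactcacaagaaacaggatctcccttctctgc
Klrc1, chr6:129678924-129679223: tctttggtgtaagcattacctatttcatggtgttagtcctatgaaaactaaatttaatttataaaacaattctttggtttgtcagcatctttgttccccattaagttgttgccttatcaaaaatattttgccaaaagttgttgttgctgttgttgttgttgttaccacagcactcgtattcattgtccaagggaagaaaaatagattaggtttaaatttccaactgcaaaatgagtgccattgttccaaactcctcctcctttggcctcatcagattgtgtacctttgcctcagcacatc
Xcl1, chr1:164935473-164935772: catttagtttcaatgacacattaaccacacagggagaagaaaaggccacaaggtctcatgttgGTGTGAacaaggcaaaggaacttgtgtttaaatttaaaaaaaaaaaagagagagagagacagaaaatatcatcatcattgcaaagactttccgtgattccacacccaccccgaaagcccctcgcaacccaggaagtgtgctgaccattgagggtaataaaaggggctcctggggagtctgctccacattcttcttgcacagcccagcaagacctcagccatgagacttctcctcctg
Among these 4 windows the half-site is found in that of Xcl1. Taking the first window listed for each gene, 9 of the 12 genes named below as higher were matched and 3 hold it (Xcl1, Cd160 and Ckb), where 14.4% of 27025 genes and 10.5% of the 7762 tested genes with a window do. The share was 12.8% of 602 genes higher in NKT-like cells and 12.1% of 701 lower ones. The longer form GGTGTGA, which contains the half-site's reverse complement, is in 3.96% of all windows and, of the 9, in Xcl1. A match describes the letters of the window, not a bound site.

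In spleen, 1.08% of Foxp3-negative T cells had a UMI of Zbtb16, 2.43% of Klrb1c and 2.14% of Il4. These transcripts were sparse: a single NKT-like cell of the spleen held at most 3 UMIs of Zbtb16, 7 of Klrb1c and 6 of Il4. The 245 cells that met the rule, of 18199 such T cells in spleen, held 75.4% of all Zbtb16 UMIs, 51.2% of Klrb1c and 49.1% of Il4. Each gene was seen more often where the other 2 were: a UMI of Il4 occurred in 59.6% of 109 cells with both Zbtb16 and Klrb1c, in 32.2% of 422 cells with 1 of them and in 1.06% of cells with neither. For Klrb1c the shares were 59.1%, 36.9% and 1.37%, and for Zbtb16 they were 41.7%, 17.1% and 0.245%. In 180 spleen B cells, which should lack these transcripts, Zbtb16 and Klrb1c had no UMI and Il4 had a share of 0.556%. In the aorta Il4 occurred in 1 of 5 cells with both other genes, in 9.92% of 121 cells with 1 and in 0.664% with neither.

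The label names Zbtb16 and Klrb1c together, and 109 of the 245 spleen cells had both. Klrb1c with Il4 alone was the most frequent pair in spleen (91 cells), and 65 cells had all 3. Zbtb16 with Il4 alone occurred in 45 cells and Zbtb16 with Klrb1c alone in 44. In the aorta 7 of 17 cells had Zbtb16 and Il4 alone, 5 had Klrb1c and Il4, 4 had Zbtb16 and Klrb1c, and 1 had all 3. A single vascular cell in library 3 held 33 of the 71 Il4 UMIs of the 17.

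NKT-like cells were 2.45%, 1.30% and 1.13% of Foxp3-negative T cells in spleen libraries 1 to 3. In the vascular libraries they were 0.0975%, 0.0732% and 0.133%. Every spleen library was above every vascular one, and spleen library 1, the smallest, was the highest. Exact 95% binomial intervals, which cover counting error only, were 1.81% to 3.24% for spleen library 1 and 0.0392% to 0.201% for vascular library 1. The means were 1.63% ± 0.719 (SD, n = 3) and 0.101% ± 0.0302 (SD, n = 3). The difference of -1.53 percentage points had a two-sided exact permutation p of 0.1, the smallest that 3 libraries against 3 can give. With every cell thinned to 2000 UMIs the means were 0.647% and 0.0342%, from 82 and 5 cells. With all 3 genes required, the difference was -0.428 percentage points.

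**Figure D1:**
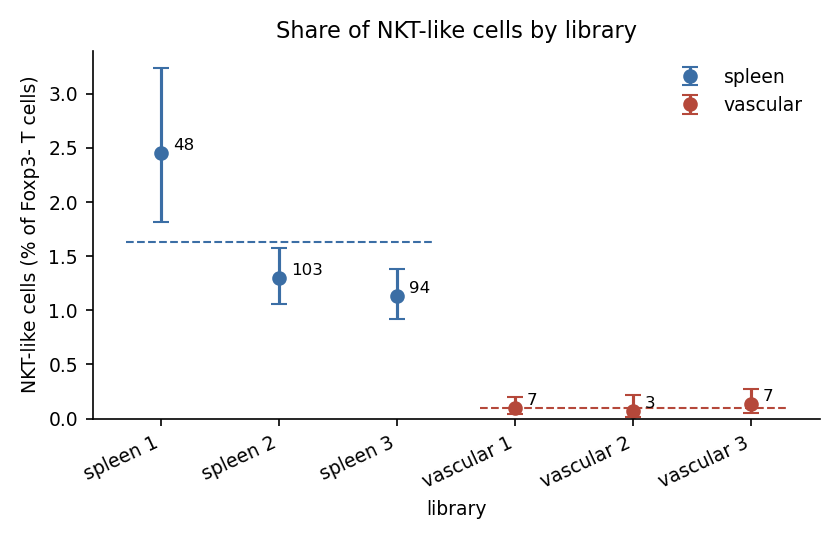
Share of NKT-like cells among Foxp3-negative T cells (percent) in each of the 6 libraries, with exact 95% binomial intervals, the mean of each tissue as a dashed line and the number of NKT-like cells beside each point. The 3 spleen libraries lie between 1.13% and 2.45% and the 3 vascular libraries between 0.0732% and 0.133%.

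The spleen's NKT-like cells carried a set of transcripts for NK-type receptors, chemokine receptors and cytotoxic proteins that the other T cells of the same libraries had at low levels. UMIs were summed over the cells of each class in each library and tested with edgeR's quasi-likelihood test with the library as a block. Levels are CPM (UMIs scaled to a fixed total per library and class, TMM-normalised), differences are log2 ratios ± SE, and a call is a Benjamini-Hochberg adjusted p under 0.05. Of 10169 genes tested, 805 were higher (7.92%) and 929 lower (9.14%), with a median log2 difference of -0.015. A gene was tested if it passed a filter on low counts, and 471 of the 10169 would not have passed on the other T cells alone. Of those 471, 109 were higher, and genes of this kind were tested only because of their counts in NKT-like cells. On NKT-like cells alone 8904 genes would have passed, and 755 of them were lower. At an unadjusted p under 0.05 there were 2657 genes, and 78 of 98 ribosomal protein genes were among the lower calls.

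Xcl1 encodes lymphotactin, a chemokine that attracts cross-presenting dendritic cells. Its level in NKT-like cells was 319, 376 and 436 CPM in spleen libraries 1 to 3. In the other T cells it was 7.49, 7.64 and 9.25 CPM, so the classes were far apart in each library (log2 difference 5.55 ± 0.11, edgeR adjusted p = 3.7e-174). A UMI of Xcl1 was found in 75.9% of NKT-like cells and 1.41% of the others, and after thinning to 2000 UMIs in 53.9% and 0.921%. Cxcr6, the receptor for the chemokine CXCL16 on endothelium and dendritic cells, was at 647, 554 and 721 CPM. The other T cells had 24.7, 29.4 and 42.1 CPM (log2 4.29 ± 0.09, adjusted p = 3.7e-171). Il2rb, which transmits interleukin-2 and interleukin-15 signals, was at 746, 781 and 724 CPM against 94.8, 110 and 105 CPM (log2 2.85 ± 0.08, adjusted p = 1.4e-120). It was detected in 92.7% of NKT-like cells and 23.3% of the others.

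The lectin-like NK receptors formed the next group. Klrk1, which encodes the activating receptor NKG2D, was at 114, 152 and 113 CPM against 4.76 to 5.63 CPM (log2 4.59 ± 0.21, adjusted p = 9.4e-69). Klrc1, which encodes NKG2A, was at 93.3, 145 and 150 CPM against 4.87 to 7.06 CPM (log2 4.56 ± 0.20, adjusted p = 2.1e-70). Cd160, an immunoglobulin-like receptor of NK and memory T cells, was even across the libraries at 214, 235 and 225 CPM against 9.39 to 9.53 CPM (log2 4.58 ± 0.15, adjusted p = 9.8e-107). The receptors were not in every cell: UMIs of Klrk1 occurred in 33.1% of the spleen's NKT-like cells, of Klrc1 in 26.1% and of Cd160 in 69.8%. Of 10 NK receptor genes tested from a list of 19, 4 (Klra1, Klrb1f, Klrc2 and Klre1) would not have passed the filter on low counts without their level in NKT-like cells, so their direction is no support. Of the other 6, 5 were higher and none lower, among them Klrd1 (2.10 ± 0.17), the CD94 partner of NKG2 receptors. Klrc2 was at 4.89 ± 0.56 and Klrb1f at 3.51 ± 0.49. Klrc1 and Klrc2 are close relatives in sequence, so reads could be split between them. Klrg1, a marker of terminal effector cells, did not pass (0.24 ± 0.64, adjusted p = 0.88).

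The other 6 genes named as most raised were Ckb (creatine kinase B, log2 3.45 ± 0.10), the serpin Serpina3g (3.36 ± 0.13), the cathepsin Ctsw (3.19 ± 0.09), the ubiquitin ligase component Asb2 (3.08 ± 0.17), the inflammatory chemokine receptor Ccr2 (3.04 ± 0.17) and the adhesion receptor Cd226 (2.94 ± 0.14). Their mean levels in NKT-like cells ran from 120 CPM (Ccr2) to 409 CPM (Ctsw), and each was higher in every spleen library without overlap. The classes also did not overlap for 3238 of the 10169 genes tested (31.8%), and the named genes were picked for a large difference.

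Genes of recirculating naive T cells were among those most reduced in NKT-like cells. Ccr7, the lymph node homing receptor, was at 15.1, 85.1 and 64.4 CPM against 555 to 591 CPM in the others (log2 -3.23 ± 0.12, edgeR adjusted p = 5.1e-87). S1pr1, which guides egress from lymphoid organs, was at 9.03, 35.6 and 46.0 CPM against 266 to 327 CPM (-3.05 ± 0.15, adjusted p = 1.8e-60). Library 1, the smallest, had the lowest level of both genes in NKT-like cells. Klf2, the factor that drives S1pr1, was at 264 CPM against 1297 CPM on average (-2.26 ± 0.09), and the integrin subunit Itga4 at 24.4 against 108 CPM (-2.07 ± 0.18). Actn1 (-3.29 ± 0.18), Dapl1 (-3.26 ± 0.19), Igfbp4 (-3.10 ± 0.11), Il6ra (-2.59 ± 0.19), Nsg2 (-2.50 ± 0.15), Pdlim1 (-2.23 ± 0.17) and Trib2 (-2.16 ± 0.17) were lower as well. Dapl1 had no UMI in NKT-like cells of library 1. It would not have passed the filter on NKT-like cells alone, so its direction is no support.

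**Figure D2:**
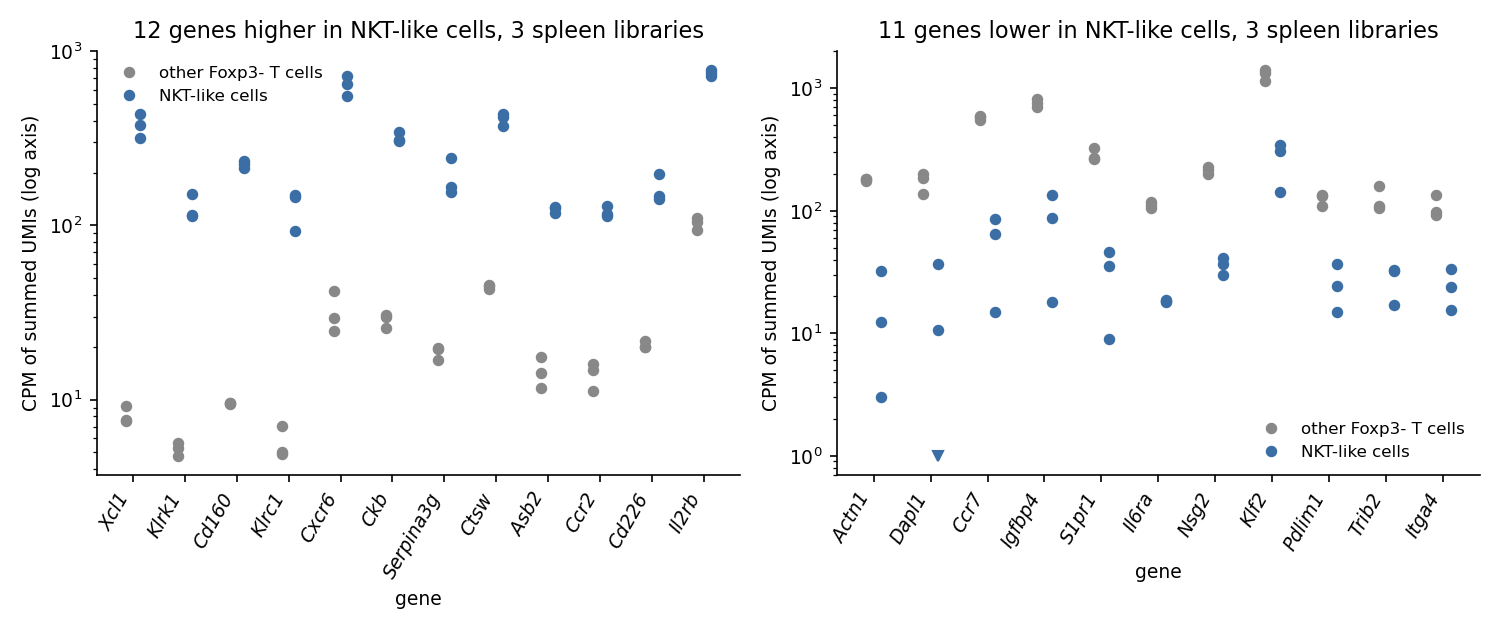
Level (CPM, log axis) of 23 named genes in NKT-like cells (blue) and in other Foxp3-negative T cells (grey) of the 3 spleen libraries, 1 point per library and class. The classes do not overlap for the 12 genes on the left, which are higher, or the 11 on the right, which are lower. The share without overlap among all genes tested was 31.8%. A downward triangle drawn at 1 CPM marks Dapl1 in library 1, which had no UMI.

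Of the 19 NKT1 genes, all were tested, 16 were higher and none lower, with a median of 2.62, where 7.92% of all genes tested were higher. All but Ccl3 would have passed the filter on the other T cells alone. The list is not particular to NKT-like cells. In the other Foxp3-negative T cells all 19 were higher in the aorta than in spleen (median 2.14), where 2833 of 12168 genes tested were higher. The gene lists were chosen with earlier results of these data known, so their counts are a description. Tbx21, the gene of T-bet, was at 126, 88.2 and 110 CPM against a mean of 16.4 CPM in the others (2.68 ± 0.17, edgeR adjusted p = 4.2e-41). Ifng was at 247, 212 and 178 CPM against 35.1 CPM (2.55 ± 0.11, adjusted p = 6.5e-71). Il12rb2, the inducible chain of the interleukin-12 receptor, was at 111, 69.6 and 65.9 CPM against 3.80 CPM (4.39 ± 0.25, adjusted p = 1.2e-48). The chemokine Ccl5 reached 2848 CPM against 494 CPM (2.53 ± 0.07), and was detected in 94.3% of NKT-like cells and 8.89% of the others. Id2, an inhibitor of E proteins, was at 866 CPM against 141 CPM (2.62 ± 0.08), and Fasl, a death receptor ligand, at 148 CPM against 22.4 CPM (2.71 ± 0.14). The 3 that did not pass were Il18r1 (0.15 ± 0.23, adjusted p = 0.77), Ccl4 (-0.99 ± 0.38, adjusted p = 0.052) and Ccl3 (-1.88 ± 1.26, adjusted p = 0.37). Ccl4 was called lower without cells with 3 NK genes (-1.42 ± 0.42, adjusted p = 0.0061).

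NKT2 genes were mixed: of 13 tested from a list of 15, 6 were higher and 6 lower, with a median of -0.32. Il17rb would not have passed the filter on the other T cells alone, so its direction is no support. Of the other 12, 5 were higher and 6 lower. Gata3 was higher, at 129, 110 and 138 CPM against 64.0 CPM (0.97 ± 0.12, edgeR adjusted p = 6.2e-13). The interleukin-25 receptor chain Il17rb was higher from a very low level, at 6.09 against 0.161 CPM (4.86 ± 0.85, adjusted p = 3.7e-07), and so were Plac8 (1.94 ± 0.11) and the costimulator Icos (0.80 ± 0.09). The lower ones were Cd4 (-1.10 ± 0.12), Lef1 (-1.77 ± 0.11), Slamf6 (-1.61 ± 0.15), Il6ra, Izumo1r (-0.96 ± 0.11) and Il4ra (-0.72 ± 0.15). Cd4 was at 85.1 CPM against 186 CPM although all libraries were sorted as CD4+. A UMI of Cd4 was found in 36.7% of NKT-like cells and 57.0% of the others, or 15.9% and 28.7% after thinning.

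Of 9 NKT17 genes tested from a list of 15, 5 were higher and 1 lower. Of the 7 that would have passed the filter on the other T cells alone, 4 were higher and 1 lower. Of the 6 that would have passed on NKT-like cells alone, 0 were lower. Il17a had no UMI in the spleen's NKT-like cells, and neither did Ccr6, which was at least 2.40-fold lower than in the others (floor of 3 counts over the group). The higher genes were Cxcr6, Rora (2.24 ± 0.13), the membrane proteins Tmem176a (2.57 ± 0.23) and Tmem176b (2.12 ± 0.20), and the leukotriene receptor Ltb4r1 (1.90 ± 0.71, edgeR adjusted p = 0.047). Ltb4r1 would not have passed the filter on the other T cells alone, so its direction is no support. The follicular helper and NKT10 list had 1 of 12 higher and 5 lower (median -0.99). The 1 was Sostdc1, at 0, 0 and 79.8 CPM, so that library 3 alone set its level and the classes overlapped.

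Within the spleen's NKT-like cells, transcripts of both T helper types occurred side by side. Tbx21 was detected in 47.3% of the 245 cells, Gata3 in 55.5%, both in 29.4% and neither in 26.5%. Ifng was detected in 60.4% and together with Il4 in 47.3%. These are shares of cells with a UMI and depend on depth. In the 180 spleen B cells the share with a Tbx21 UMI was 4.44%, with Ifng 1.11% and with Gata3 0. Il4 helped choose the cells, so its share is no finding. A panel of 8 genes that the rule did not use (Xcl1, Il2rb, Cxcr6, Klrk1, Klrc1, Cd160, Il12rb2 and Tbx21) had at least 3 detected in 91.7%, 93.2% and 92.6% of NKT-like cells of spleen libraries 1 to 3. In the other T cells the shares were 4.08%, 3.69% and 4.14%. This panel was put together after the values of its genes were seen and is a description.

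Among cytokines, 7 of 16 tested genes were higher and 2 lower (median 0.17). Csf2 would not have passed the filter on the other T cells alone, so its direction is no support. Of the other 15, 6 were higher and 2 lower. Of the 11 that would have passed on NKT-like cells alone, 1 was lower. Csf2, the gene of GM-CSF, was at 15.1, 13.9 and 50.6 CPM against 1.24 CPM (5.0 ± 0.42, edgeR adjusted p = 5.8e-26), with library 3 highest. Tnf was at 35.7 CPM against 23.4 CPM (0.68 ± 0.22, adjusted p = 0.016). Il22 had no UMI in the spleen's NKT-like cells (at least 2.92-fold lower). Of 21 cytokine receptor genes, 9 were higher and 7 lower (median 0.24). Of the 20 that would have passed the filter on the other T cells alone, which leaves out Il17rb, 8 were higher and 7 lower. Il2ra (2.60 ± 0.21), Il12rb1 (2.09 ± 0.29), Il18rap (2.48 ± 0.30) and Il7r (0.82 ± 0.08) were higher, while Ifngr2, a chain of the interferon-gamma receptor, was at 7.15 CPM against 66.7 CPM (-3.12 ± 0.28). Tgfbr2 (-1.16 ± 0.13) and Il6st (-2.28 ± 0.31) were lower too.

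Of 27 homing and adhesion genes, 12 were higher and 12 lower, with a median of 0.03. Itga1 would not have passed the filter on the other T cells alone, so its direction is no support. Of the other 26, 11 were higher and 12 lower. Beside Cxcr6 and Ccr2, the higher ones included Ccr9, a gut homing receptor (71.3 against 5.0 CPM, 3.88 ± 0.25), the collagen-binding integrin chain Itga1 (3.67 ± 0.56), Cxcr3 (1.5 ± 0.10), Icam1 (1.68 ± 0.15), the integrin LFA-1 chain Itgal (1.16 ± 0.11) and Cd44 (1.47 ± 0.14). Cytotoxicity genes had 9 of 15 higher and 1 lower (median 0.93), or 8 and 2 without cells with 3 NK genes. Nkg7, a granule protein, was at 831 CPM against 118 CPM (2.81 ± 0.08), and perforin (Prf1) at 29.1 against 13 CPM (1.19 ± 0.27). Gzmk was lower (-2.48 ± 0.46) and Gzmb did not pass (0.46 ± 0.24, edgeR adjusted p = 0.21). Gzma turned with 1 cell. With all cells it was called higher (0.87 ± 0.28, adjusted p = 0.017) at 0, 72.7 and 7.67 CPM, from 52 UMIs, and the cell with NK genes held 47 of them, all those of library 2. Without such cells it was called lower (-2.61 ± 0.50, adjusted p = 2.6e-06) at 0, 0 and 7.65 CPM. At these levels Gzma would not have passed the filter on NKT-like cells alone, so that direction is no support.

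The naive T cell list had 15 of 20 genes lower and 3 higher (Il7r, Ccr9 and the Notch regulator Dtx1), with a median of -1.88. Of the 19 that would have passed the filter on NKT-like cells alone, 14 were lower. Tcf7, the gene of TCF-1, was at 90.3 CPM against 370 CPM (-2.0 ± 0.12). The T cell receptor signalling list had 5 of 20 higher and 7 lower (median -0.11). The receptor chain Cd247 was at 188 CPM against 438 CPM (-1.20 ± 0.10) and the receptor dampener Cd5 at 136 against 295 CPM (-1.15 ± 0.11), whereas Cd3d (-0.13 ± 0.07, edgeR adjusted p = 0.27) and Cd3g (0.06 ± 0.07, adjusted p = 0.69) did not pass. In the list of innate T cell development genes 8 of 22 were higher and 6 lower (median 0.04). Id2, Hivep3 (1.30 ± 0.29), which is known from NKT cell development, and Drosha (1.64 ± 0.25) were higher, and Id3 was lower (-1.45 ± 0.23). Proliferation genes had none of 10 higher and 6 lower (median -1.09), among them Mki67 at 2.05 against 16.7 CPM (-2.62 ± 0.56). Of the 6 that would have passed the filter on NKT-like cells alone, 3 were lower. Mki67 is not among these 6, so its direction is no support.

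Immediate early genes had 8 of 20 higher and 1 lower (median 0.24). The phosphatase Dusp1 was at 1851 CPM against 514 CPM (1.83 ± 0.07), and Fosb was at 101 against 35.3 CPM (1.5 ± 0.15). Nr4a1, a gene induced by T cell receptor signals, was lower (-0.90 ± 0.12), although its levels of 181, 88.2 and 85.9 CPM overlapped those of the others. Heat shock genes had 1 of 11 higher and 6 lower (median -0.27).

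**Figure D3:**
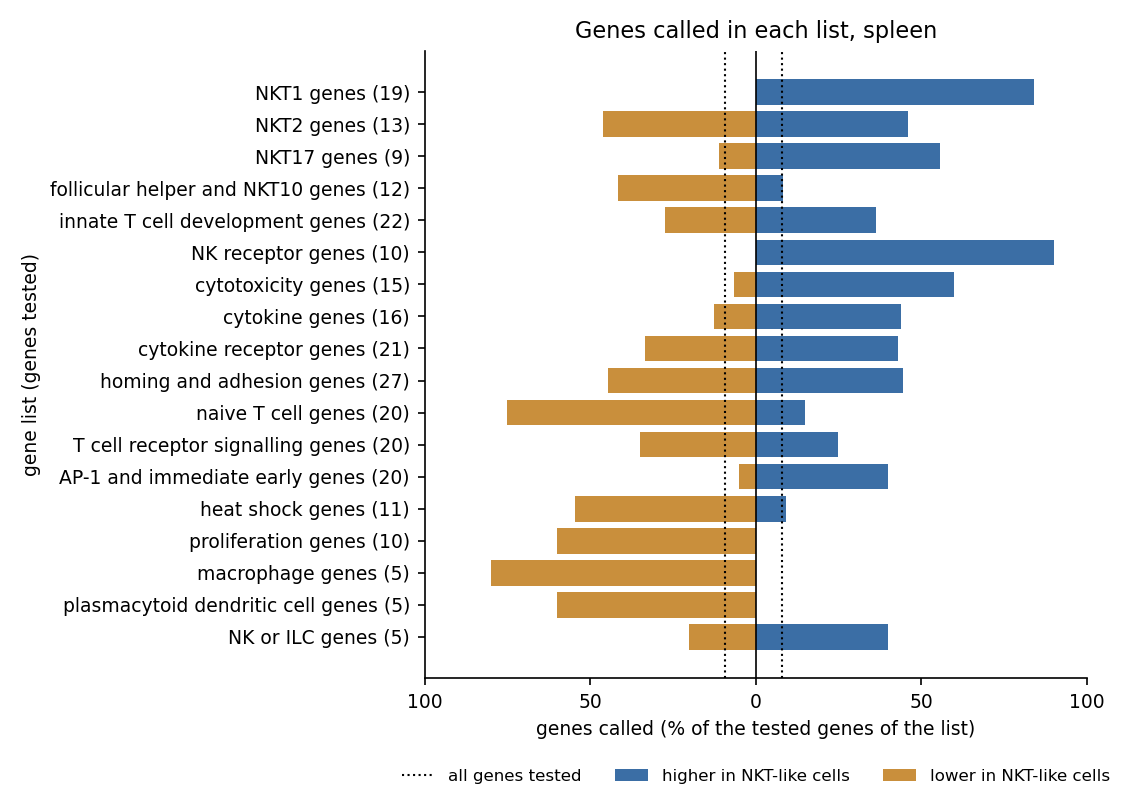
Share of the tested genes of each list that were called higher (blue, to the right) or lower (orange, to the left) in the spleen's NKT-like cells, for lists with at least 5 genes tested, with that number in parentheses. Dotted lines mark the 7.92% higher and 9.14% lower of all genes tested. Against these shares, 16 of 19 NKT1 genes were higher and 15 of 20 naive T cell genes lower. The lists were chosen with earlier results of these data known, so the shares are a description. Of the 10 NK receptor genes, 4 were testable through NKT-like cells, and the 5 macrophage genes were testable through the other T cells.

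Markers of other cell types were mostly lower or not called in the spleen's NKT-like cells. Of the tested markers, 0 of 3 B cell, 0 of 5 macrophage and 0 of 5 plasmacytoid dendritic cell genes were higher. Of them, 1, 4 and 3 were lower. On NKT-like cells alone 1, 0 and 2 of these genes would have passed the filter on low counts, and 1, 0 and 1 were lower. The remaining lower calls were testable through the other T cells only, so their direction is no support. Summed plasmacytoid dendritic cell markers were at 172 to 222 CPM in NKT-like cells against 247 to 286 CPM, and Siglech and Klk1 had no UMI in the NKT-like cells. The 8 NK and innate lymphoid markers summed to 37.2 to 137 CPM against 73.2 to 94.8 CPM, with Klre1 (3.18 ± 0.68) and Gzma called higher, Tyrobp lower (-1.13 ± 0.25) and Klra4 without a UMI. Without cells that carried 3 such genes the sum was 14.6 to 82.8 CPM in NKT-like cells against 72.3 to 88.0 CPM. Klre1 was then called higher (3.23), Gzma, Tyrobp (-1.71) and Fcer1g (-1.60) were called lower, and Ncr1, Klra8 and Klra4 had no UMI in NKT-like cells. The B cell marker Cd79a was also called lower then (-1.30, edgeR adjusted p = 0.049), where it missed with all cells (adjusted p = 0.053). Gzma, Fcer1g and Cd79a would not have passed the filter on NKT-like cells alone, nor Klre1 on the other T cells alone. The direction of these genes is no support. In the fit without cells with 3 NK genes, 806 genes were higher and 944 lower, near the 805 and 929 of all cells. Cd8a had no UMI in the spleen's NKT-like cells. Cd8b1 was lower (-1.89 ± 0.41), a gene that would not have passed the filter on NKT-like cells alone. The gamma delta T cell markers Sox13, Cd163l1 and Blk had no UMI in them, and other markers of that lineage were not used here. The 6 markers of type 2 innate lymphoid cells (ILC2) or basophils summed to 119 to 149 CPM in NKT-like cells against 57.6 to 61.0 CPM, and 204 of the 207 UMIs were of Gata3, the 1 gene of the list that was tested. Of the rest, Il13 had 1 UMI and Cpa3 2, while Il1rl1, Mcpt8 and Fcer1a had none, the last 2 also in the other T cells. Both erythroid genes were lower, and their summed level in the other T cells ran from 20.1 to 191 CPM across libraries. Only 1 of them would have passed the filter on NKT-like cells alone.

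The spleen's NKT-like cells were also set against 2 narrower groups of comparison cells, chosen after the data were seen. The first was 2819 Foxp3-negative T cells with a UMI of Cd44, a marker of activated and memory T cells. Of 8380 genes tested against them, 662 were higher (7.9%) and 763 lower (9.11%). The second was 587 cells with UMIs of at least 2 of the follicular helper genes Cxcr5, Bcl6, Pdcd1 and Il21. Of 6303 genes tested against them, 710 were higher (11.3%) and 738 lower (11.7%). Of 18 NKT1 genes tested, 15 were higher and 1 lower against the Cd44 cells. Against the follicular helper cells these were 16 and 1 of 18. These comparisons share the NKT-like cells, so their values are set side by side. All 12 genes named as higher, which were chosen from the first comparison, were called higher in all 3. In the follicular helper cells Klrk1, Klrc1, Ccr2 and Xcl1 had means of only 0.600, 1.99, 3.38 and 6.74 CPM. Their ratios there rest on few UMIs of the comparison cells. Which class carried each gene past the filter on low counts was not worked out here, so these calls are a description. The log2 difference of Klrk1 was 4.59 against all others, 3.67 against the Cd44 cells and 8.03 against the follicular helper cells, and that of Cd160 was 4.58, 3.5 and 2.67. For Tbx21 it was 2.68, 1.75 and 2.13, and for Ifng 2.55, 1.71 and 1.63. Icos, higher against all others (0.80), did not pass against the Cd44 cells (0.20, adjusted p = 0.19) and was lower against the follicular helper cells (-0.42, adjusted p = 0.0042). Of the genes named as lower, Igfbp4 was at -3.10, -1.16 and 0.23, and the last value did not pass (adjusted p = 0.48). Dapl1 was at -3.26, -2.10 and -0.81 (adjusted p = 0.085 for the last).

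**Figure D4:**
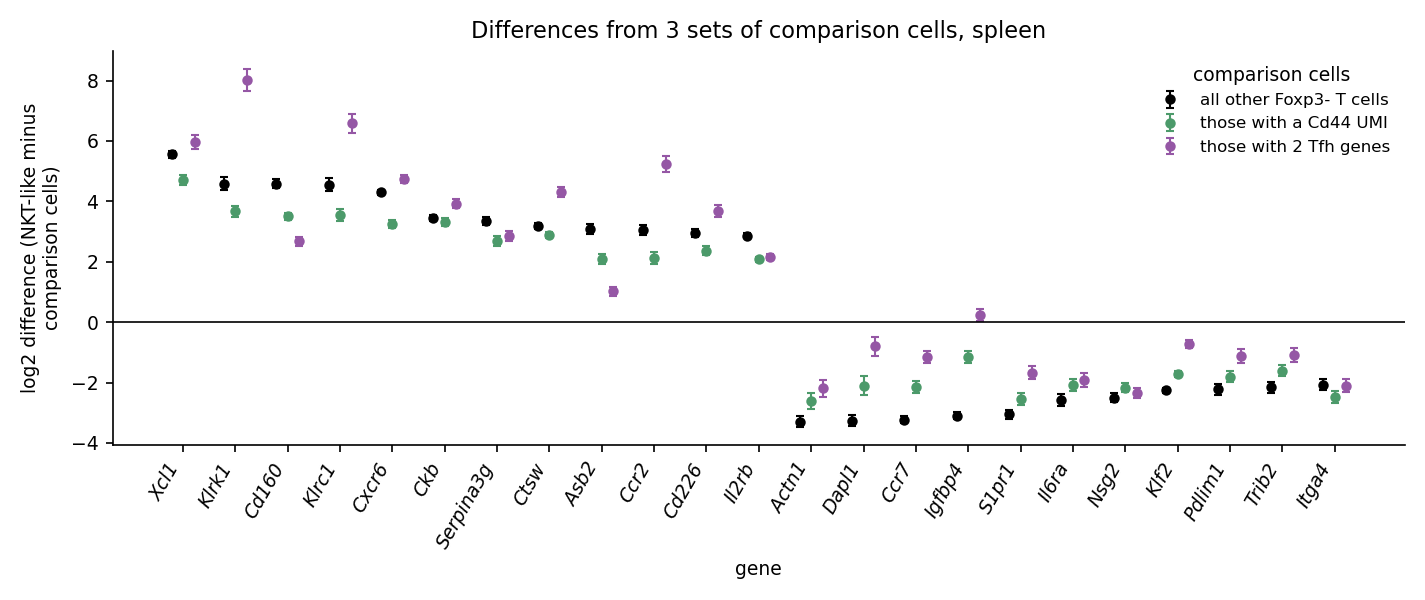
Log2 difference ± SE of 23 named genes between the spleen's NKT-like cells and 3 sets of comparison cells: all other Foxp3-negative T cells, those with Cd44 and those with 2 follicular helper genes. The 12 higher genes lie above 0 in all 3 sets, and Igfbp4 goes from -3.10 to 0.23.

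The levels also varied with how many of the 3 choosing genes a cell carried. Spleen T cells with 0, 1, 2 and 3 of them numbered 17480, 474, 180 and 65. Cells with 1 are just outside the rule and cells with 2 just inside it. Xcl1 was at 4.16, 126, 392 and 453 CPM in these 4 classes (means of 3 libraries). Cxcr6 was at 21.8, 306, 656 and 803 CPM, and Il2rb at 86.5, 411, 757 and 954 CPM. Klrk1 stood at 3.44, 53.7, 111 and 205 CPM. In the opposite direction Ccr7 was at 545, 130, 54.4 and 72.8 CPM. The spread was wide in the class of 65 cells, where Xcl1 was 317 to 528 CPM and Ccr7 24.4 to 158 CPM over the libraries. The Cd3e level was 897, 1106, 1078 and 1057 CPM. The cells with 1 gene lay between those with none and those with 2 for all of these genes except Cd3e, and they are part of the comparison group. No test was made, because the number of choosing genes is the rule itself.

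**Figure D5:**
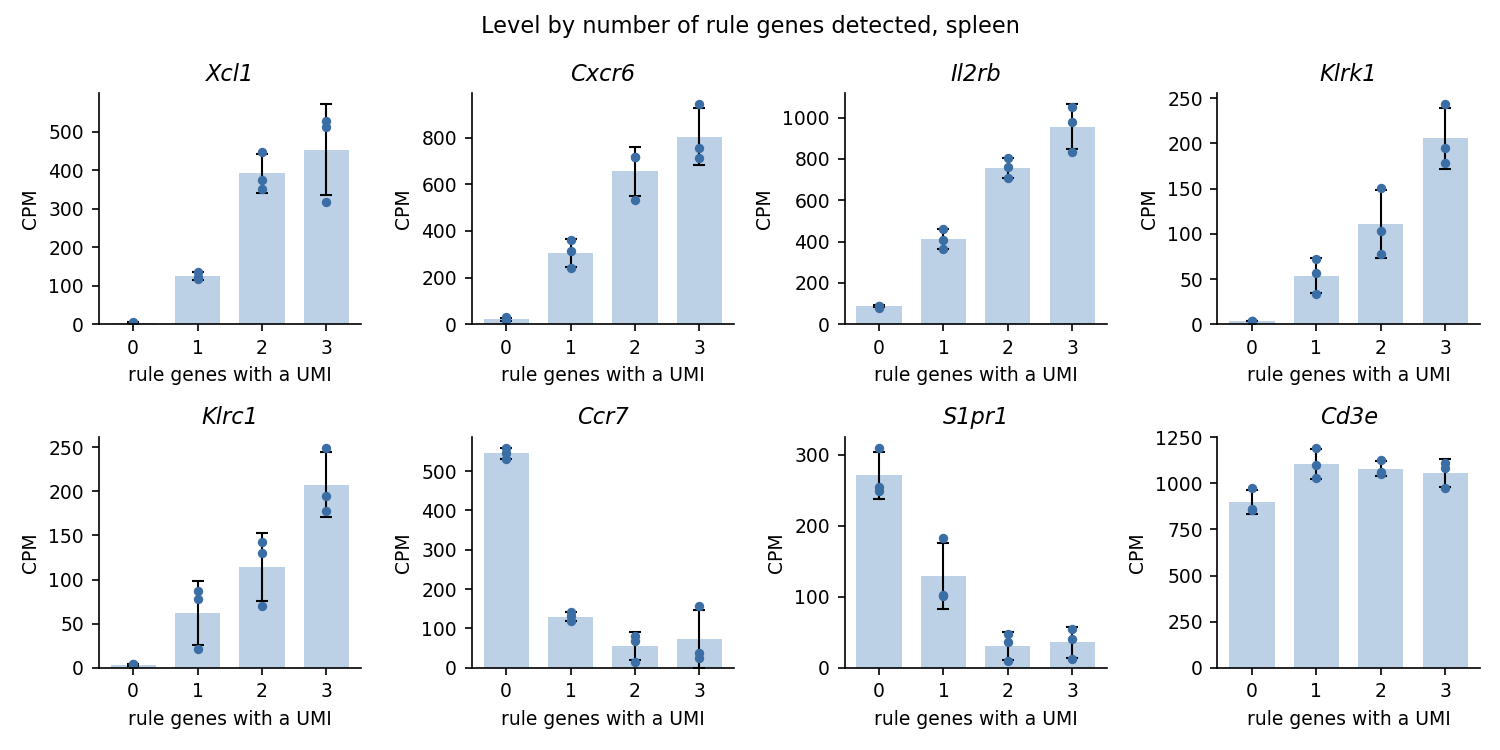
Level (CPM, linear axis from 0) of 8 genes in spleen T cells with 0, 1, 2 or 3 of Zbtb16, Klrb1c and Il4, as bars for the mean of 3 libraries, error bars for the SD and 1 point per library. Xcl1 goes from 4.16 to 453 CPM and Ccr7 from 545 to 72.8 CPM across the 4 classes.

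Klrb1c, Klrk1 and Klrc1 lie in the NK gene complex, where lectin-like receptor genes are clustered. In the GENCODE annotation of mm10, Klrb1c spans chr6:128778485-128789215, Klrk1 chr6:129610323-129623864 and Klrc1 chr6:129666015-129678973, all on the minus strand. The gap between Klrb1c and Klrk1 is 821 kb, and that between Klrk1 and Klrc1 is 42.2 kb. A wider segment, chr6:122270596-131247362, was drawn from the first to the last gene with a Klr symbol, Klrg1 to Klra2. It is larger than the complex and takes in genes such as Cd4 and Gapdh. Of its 193 annotated genes, 66 were tested, 13 were higher and 9 lower. Of its 25 genes with Klr symbols, 8 were tested, and the 4 named above passed the filter through NKT-like cells. Of the remaining 4, 3 were higher (Klrk1, Klrc1 and Klrd1) and none lower. The other 168 genes of the segment had 58 tested, 6 higher and 9 lower, with a median of -0.05 near that of all genes.

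Levels of Klrc1 and Klrk1 differed with Klrb1c inside the class by edgeR and not by DESeq2. Among spleen cells with both Zbtb16 and Il4, those with a UMI of Klrb1c were compared with those without in libraries 2 and 3, since library 1 had under 10 cells without it. These cells met the rule by the other 2 genes whether Klrb1c was seen or not, and there were 24 and 28 with it against 18 and 19 without. This fit leaves 1 residual degree of freedom, so its p-values rest largely on spread estimated across genes. Klrc1 was at 185 and 245 CPM in Klrb1c-positive cells against 0 and 32.2 CPM (log2 3.79 ± 0.57, edgeR adjusted p = 0.0039). Klrk1 was at 185 and 239 CPM against 52.5 and 40.3 CPM (2.15 ± 0.40, adjusted p = 0.029). These 2 genes, both higher, were the only calls among 2079 genes tested (0.0962%), with 129 at an unadjusted p under 0.05. With 0 CPM in library 2, Klrc1 would not have passed the filter on Klrb1c-negative cells alone, so its direction is no support. Which class carried Klrk1 past the filter was not worked out here, so its call is a description. DESeq2 called none. The calls were also lost without a filter on low counts (Klrc1 adjusted p = 0.66, Klrk1 adjusted p = 0.78). Klrd1 was at 85.5 and 89.6 against 6.57 and 8.06 CPM (3.44 ± 0.82, adjusted p = 0.15). Xcl1 (0.52 ± 0.37, adjusted p = 0.89), Cxcr6 (0.50 ± 0.24, adjusted p = 0.80) and Tbx21 (-0.04 ± 0.38, adjusted p = 0.99) did not pass.

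Pooled over the 3 spleen libraries, the level of Klrc1 was 12.2 CPM (exact Poisson interval 3.32 to 31.2, counting error only) in cells with Zbtb16 and Il4 alone. It was 148 CPM (107 to 201) in cells with Zbtb16 and Klrb1c, 181 CPM (147 to 222) with Klrb1c and Il4, and 211 CPM (168 to 262) with all 3. Xcl1 and Cxcr6 were high in all 4 patterns, at 297 to 479 CPM and 579 to 818 CPM. The Cxcr6 level was 634 CPM (551 to 726) in cells without a UMI of Klrb1c. It was 579 CPM (494 to 675) with Zbtb16 and Klrb1c alone and 676 CPM (607 to 750) with Klrb1c and Il4 alone. Both of these intervals overlap the first. With all 3 genes it was 818 CPM (731 to 912), an interval that does not overlap the first.

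Among spleen cells with both Zbtb16 and Klrb1c, Il4-positive and Il4-negative cells of libraries 2 and 3 were compared, and 2 of 2031 genes tested were called (0.0985%), with 97 at an unadjusted p under 0.05. The sums came from 24 and 28 cells with Il4 and 20 and 18 without, so that smaller differences may not be detectable. Here too the fit leaves 1 residual degree of freedom. Both calls, AY036118 (0.73 ± 0.16, edgeR adjusted p = 0.0047) and Gm42418 (0.56 ± 0.12, adjusted p = 0.0047), are non-coding transcripts annotated over ribosomal RNA sequence, and DESeq2 called none. Ifng was at 182 and 178 CPM in Il4-positive cells against 227 and 260 CPM (-0.44 ± 0.29, adjusted p = 0.997) and Gata3 at 112 and 219 against 118 and 111 CPM (0.57 ± 0.34, adjusted p = 0.98). Xcl1 was at 524 and 516 against 291 and 275 CPM without passing (0.88 ± 0.25, adjusted p = 0.20).

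In the aorta the 17 NKT-like cells held 114961 UMIs in all, so single transcripts weigh heavily. At least 3 of the 8 panel genes were detected in 14 of the 17 (82.4%), and in 29.9% of the other vascular T cells, a far higher background than the 3.94% of the spleen. Pooled over the libraries, Xcl1 was at 278 CPM (exact Poisson interval 190 to 393, from 32 UMIs) in NKT-like cells and at 33.6 CPM in the other vascular T cells. Il2rb was at 435 CPM (323 to 573) against 205 CPM, Tbx21 at 130 CPM (73.0 to 215) against 64.0 CPM, and Gata3 at 209 CPM (134 to 311) against 87.1 CPM. Cxcr6 was at 365 CPM (263 to 494) against 353 CPM, so a difference as large as that of spleen (log2 4.29) was not seen. The other T cells of spleen had a mean of 32.1 CPM. Without cells with 3 NK genes, Il2rb was at 403 CPM (288 to 548), Gata3 at 232 CPM (147 to 347) and Cxcr6 at 423 CPM (305 to 572). The interval of Tbx21, 121 CPM (62.4 to 211), then took in the 64.0 CPM of the other T cells. Ccr7 had no UMI in the 17 cells (upper end of the exact Poisson interval 32.1 CPM) and was at 336 CPM in the others. No test between classes was made in the aorta, where each library had fewer than 10 NKT-like cells.

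Levels in vascular and splenic NKT-like cells were compared in 5 libraries, vascular 1 and 3 with 7 cells each and the 3 of spleen, at a minimum of 5 cells in place of the 10 first set. Of 4178 genes tested, 58 were higher in the aorta (1.39%) and 9 lower (0.215%), with 521 at an unadjusted p under 0.05 and a median of -0.14. Which tissue carried each gene past the filter on low counts was not worked out for all genes. These calls and the list counts below are therefore a description. Hspa1a, a heat-inducible chaperone, was at 1520 and 1328 CPM in the vascular libraries and at 0, 0 and 25 CPM in spleen (7.12 ± 0.50, edgeR adjusted p = 1.7e-07). It was detected in 12 of 17 vascular and 4 of 245 splenic NKT-like cells. Hspa1a would not have passed the filter on the spleen libraries alone, so its direction is no support. In the other T cells it was also higher in the aorta (7.85), where 41.2% of 12168 tested genes were called. Heat shock genes had 6 of 11 higher and none lower, and immediate early genes 7 of 18 higher and none lower. Leaving out cells with 3 NK genes made these 5 of 11 and 8 of 17, since Hsp90ab1 missed the call (adjusted p = 0.051) and Jun reached it (0.92 ± 0.22, edgeR adjusted p = 0.027). Hspa1a and Hspa1b (6.71 ± 0.50) are nearly identical in sequence, so their reads could be split. Crem, a cAMP-responsive regulator (4.5 ± 0.76), Atf3 (5.51 ± 1.02), Litaf (4.01 ± 0.56), Fosl2 (3.61 ± 0.66) and the granzyme inhibitor Serpinb9 (3.36 ± 0.49) were higher as well. None of these genes, nor Hspa1b, would have passed the filter on the spleen libraries alone, so their direction is no support. Ly6c2 was at 3426 and 956 CPM against 192 to 274 CPM (3.29 ± 0.34, adjusted p = 2.7e-05). Dissociation, depth and the number of cells differ with tissue here, and their part in these differences was not tested.

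Cd160 was lower in vascular NKT-like cells, at 21.4 and 0 CPM against 239, 254 and 245 CPM in spleen (-4.33 ± 0.71, edgeR adjusted p = 0.0023), and its single UMI in the aorta came from the cell with NK genes. Without cells with 3 NK genes, Cd160 had no UMI in the vascular NKT-like cells and was still called (adjusted p = 0.00072). Dtx1 was at 21.4 and 0 CPM against 222 to 282 CPM (-4.39 ± 0.73). Hist1h2ap and Foxn3 had no UMI in the 2 vascular libraries, and Hmgn2 (-1.82 ± 0.44), Gm42418 (-1.48 ± 0.23) and mt-Nd1 (-1.16 ± 0.27) were lower too. Cd160, Dtx1, Hist1h2ap and Foxn3 would not have passed the filter on the vascular libraries alone, so their direction is no support. Cxcr6 was at 321 and 266 CPM against 723, 597 and 785 CPM (-1.24 ± 0.29, adjusted p = 0.033). Without cells with 3 NK genes the value of Cxcr6 was -0.97 ± 0.31 and did not pass (adjusted p = 0.14). Fcer1g (4.48 ± 0.72, adjusted p = 0.0019) was at 600 and 79.7 CPM against 0 to 28.4 CPM. In vascular library 1 the cell with NK genes held 28 Fcer1g UMIs, and Gzma (4.97 ± 0.84, adjusted p = 0.0031) was at 2013 and 0 CPM, with all 94 UMIs in that cell. Without such cells both genes had too few counts to be tested. Without such cells 63 genes were higher and 11 lower, and Hspa1a was at 7.30 (adjusted p = 1.6e-09). With all cells, none of 17 tested NKT1 genes was called in either direction, with Xcl1 at -0.24 ± 0.41 (adjusted p = 0.88), Il2rb at -0.87 ± 0.26 (adjusted p = 0.10) and Ifng at 0.59 ± 0.31 (adjusted p = 0.46). Ccl5 was then at 4711 and 79.7 CPM in the aorta against 2861, 3561 and 2919 CPM in spleen (-0.34 ± 0.58, adjusted p = 0.88). With cells of 3 NK genes left out it was at 923 and 79.5 CPM against 2893 to 3506 CPM and was called lower (-2.72 ± 0.40, edgeR adjusted p = 0.00028), the 1 call among 17 NKT1 genes. Leaving out vascular library 3 left 11 genes higher and 2 lower, and leaving out vascular library 1 left 29 and 5.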

How the data were processed

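Counts of UMIs per gene and cell barcode were deposited by the authors as 1 matrix per library. Per the submitters' processing notes, FastQC 0.11.8, Cell Ranger 2.2.0, STAR 2.5.1b and Seurat were used with the build mm10, and per the labels' protocols the libraries are 10x Genomics 5′ libraries of about 10000 loaded cells (target 6000). How barcodes were kept, and any step on doublets, are not given in the sources used here. No doublets were removed; a score of the neighbours of each cell among simulated doublets (2 per cell, 50 neighbours, 20 components, 2000 genes) marked 0.8% of cells per 1000 barcodes, and leaving these out was an alternative.

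UMIs were summed per library and class. edgeR 4.0.16 (R 4.3.3; TMM, filterByExpr, library as block, quasi-likelihood test, at least 10 cells per library) gave the differences, with Benjamini-Hochberg adjustment over all genes tested and SE as the absolute log2 difference over the root of F. Cd3e, Foxp3, Zbtb16, Klrb1c and Il4 stayed in the totals and were left out of the tests. DESeq2 1.42.0 was an alternative. Shares were tested by exact permutation (scipy 1.17.1), with exact Clopper-Pearson intervals. The members and gene lists were chosen with earlier results of these data known. Named genes are the 12 higher and 12 lower with the largest log2 difference among those called, at 100 CPM or more in the higher class and with the same direction in all spleen libraries, the same rule with 8 and 8 for the aorta (without overlap), the 5 smallest p in each split, and genes of the lists; a few genes that the rule names are not reported here. The comparison of tissues, the comparison of classes within the aorta and their interaction, planned at 10 cells per library, had no vascular library of that size; the first was made at 5 cells and the others were not fitted. Counts with known changes were drawn for 10020 genes of the spleen comparison, with 1 spread for all genes and no difference between libraries. The changed genes had means of at least 50 CPM, so the rates do not cover genes at lower levels. The test recovered 50 of 50 genes raised 1 log2 unit and 44 of 50 lowered by as much. For 2 units it recovered 49 of 49 raised and 48 of 50 lowered, with 8 of 9821 unchanged genes called.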

Additional observations from a re-analysis of the deposited data

Results flagged for a closer look

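Cxcr6 differed in direction between classes. From spleen to aorta it was lower in NKT-like cells, by -1.24 on the log2 scale (SE 0.29, edgeR adjusted p = 0.033), and higher in the other Foxp3-negative T cells, by 3.54 (SE 0.26), with no overlap between libraries in either class. The difference between the 2 changes was not tested. The NKT-like value rests on 14 vascular cells of 2 libraries, and without cells with at least 3 NK genes it was -0.97 (adjusted p = 0.14).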

How the results depend on the processing

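The lower share of NKT-like cells in the aorta kept its direction in all alternatives run. The difference was -0.428 percentage points with all 3 genes required, -0.661 with Zbtb16 and Klrb1c required, -0.613 with cells thinned to 2000 UMIs, and -1.77 to -1.11 with 1 library left out at a time. Requiring more genes or thinning leaves fewer cells. In spleen, 164, 301 and 450 genes were higher with thinning, all 3 genes and Zbtb16 with Klrb1c, against 805, and 430 (thinning), 546 (all 3 genes) and 520 (DESeq2) were lower, against 929. Leaving out 1 spleen library gave 553 to 626 higher and 666 to 786 lower. For the 24 genes named there, 406 of 408 values kept their direction and call. Igfbp4 turned to 0.23 against the follicular helper cells. Dapl1 lost its call there. Without cells with 3 NK genes, Gzma turned from 0.87 to -2.61, where it would not have passed the filter on NKT-like cells alone.

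In the Klrb1c split, 9 genes were higher with median-of-ratios size factors, 8 with a filter of 10 UMIs, 8 with 5 cells per library, 0 without a filter and 0 with DESeq2, and 13, 13 and 5 were lower in the first 3. In the Il4 split, 0 were higher with DESeq2, 5 without a filter and 1 with 5 cells, and 5 and 2 were lower in the last 2. For vascular against splenic NKT-like cells, DESeq2 gave 94 higher, no filter gave 60 lower, and leaving out 1 library gave 11 to 83 higher and 2 to 13 lower. The same for other T cells gave 1961 to 3053 higher and 1373 to 2808 lower. Where fewer cells or samples do not show the cause, the cause was not tested.

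The labels do not say whether libraries of equal number share a mouse. Correlations of their deviations were 0.069, 0.043 and 0.142 for equal numbers and -0.102 to 0.036 for unequal numbers. Those of equal number were thus all higher, with 1 of 3 over 0.1, and whether mice were shared cannot be told from them. Since the labels do not give it, the libraries were not treated as paired. With the number as a replicate block, the share differed by -1.53 (exact p = 0.25), 0 genes were higher and 0 lower in vascular NKT-like cells, where the block leaves 1 residual degree of freedom, and 2750 and 2072 in other T cells. Thinned splits, and splits with 1 library left out, had too few cells and gave no value. The 17 vascular cells limit what can be detected in the aorta.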
